A study of Mus musculus with 4 samples.

Results

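Apart from defensins, the antibacterial proteins of the small intestine include enzymes, lectins and membrane-anchored proteins, and 9 genes of this kind were examined in CD8αβ+ IELs (intraepithelial lymphocytes) and CD8αβ+ SPLs (splenocytes): *Mmp7*, *Itln1*, *Lyz1*, *Lyz2*, *Ang4*, *Pla2g2a*, *Pnliprp2*, *Lypd8* and *Cd24a*. All probes that the array annotation gives to these symbols were taken, which were 12 of the 41174 probes that are not controls, for 9 of 27376 gene or transcript names. *Lyz2*, *Ang4* and *Lypd8* have 2 probes each, and the other 6 genes have 1. Each probe is a 60-base oligonucleotide printed as 1 spot, and none of the spots was saturated or carried an outlier mark.

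Both groups came from untreated wild-type male C57BL/6 mice of 8 to 12 weeks, per the labels. CD8αβ+ IELs were sorted from small-intestinal epithelium and CD8αβ+ SPLs from the spleen, by CD45, CD3, CD8α, CD8β and TCRβ on their surface. The study reports that each sample was sorted from several mice, so that the spread between samples is a spread between pools. Each of the 2 samples per group was labelled in 1 color and hybridized to its own Agilent array. IEL replicate 1 and SPL replicate 2 shared slide 1, whereas IEL replicate 2 and SPL replicate 1 shared slide 2.

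Paneth cells sit at the base of the small-intestinal crypts and release granules of antibacterial proteins into the lumen. Besides α-defensins, the granules hold lysozyme, which cleaves the bacterial cell wall, phospholipase A2, which attacks bacterial membranes, and angiogenin-4, a ribonuclease with microbicidal activity. Matrilysin, the product of *Mmp7*, cuts mouse α-defensin precursors into their active form. Other secreted or surface antibacterial proteins come from goblet cells and enterocytes, and lysozyme is also a main product of macrophages and neutrophils.

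The probe sequences are given for 5 of the genes, since what a signal can be ascribed to depends on them. They are written 5′ to 3′ as in the scanner files, with positions on the mouse build mm9 as the array annotation gives them. Exons, introns and UTRs at these positions were not looked up, because no annotation of that build was used. The positions given for *Itln1* and for probe 1 of *Ang4* span fewer bases than the sequences. Capitals mark the longest run of bases, 18, that the first *Ang4* probe has in common with the probe of *Ang3*, a related ribonuclease gene. No other probe on the array had 15 or more bases in a row in common with it, and the second *Ang4* probe had no such run with any other probe.
Mmp7, chr9:7697641-7697700, plus strand: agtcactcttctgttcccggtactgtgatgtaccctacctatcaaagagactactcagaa
Itln1, chr1:173460678-173460736, minus strand: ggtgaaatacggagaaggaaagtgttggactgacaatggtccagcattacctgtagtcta
Lyz2, probe 1, chr10:116719175-116719234, minus strand: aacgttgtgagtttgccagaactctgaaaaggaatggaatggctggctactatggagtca
Ang4, probe 1, chr14:52383665-52383704, minus strand: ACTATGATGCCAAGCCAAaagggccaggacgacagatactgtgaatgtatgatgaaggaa
Ang3, chr14:44540232-44540291: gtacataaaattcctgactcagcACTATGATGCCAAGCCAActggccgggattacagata
Ang4, probe 2, chr14:52384066-52384125, minus strand: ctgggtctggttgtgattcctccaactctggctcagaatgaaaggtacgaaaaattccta
Lypd8, probe 2, chr11:58200298-58200357, plus strand: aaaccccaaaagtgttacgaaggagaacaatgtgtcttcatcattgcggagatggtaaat

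The remaining probes lie at chr10:116725254-116725313 (*Lyz1*), chr10:116714450-116714509 (*Lyz2*, probe 2), chr4:138390766-138390825 (*Pla2g2a*), chr19:58848560-58848619 (*Pnliprp2*), chr11:58203969-58204028 (*Lypd8*, probe 1) and chr10:43303706-43303765 (*Cd24a*). The accessions listed for the *Lyz1* probe belong to both *Lyz1* and *Lyz2*, 2 neighbouring genes of similar sequence, so its signal cannot be assigned to 1 of them. Probe 2 of *Lyz2* and probe 1 of *Ang4* carry accessions that matched no RefSeq gene of GRCm38.p6, and their names are those of the array. RefSeq lists *Pla2g2a* of this strain's reference genome as a transcribed pseudogene.

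Values are intensities after the scanner software subtracted background, in scanner units, or levels, which are log2 intensities relative to the 75th percentile of the same array. That percentile lay at 312 units on the array of IEL replicate 1, at 435 on that of IEL replicate 2, and at 479 and 605 on those of SPL replicates 1 and 2. The 4 arrays were not alike within groups. Over the 27911 tested probes, the levels of IEL replicate 2 correlated more closely with SPL replicate 1 (Pearson's r across probes 0.992) and SPL replicate 2 (0.973) than with IEL replicate 1 (0.946). IEL replicate 1 had an r of 0.928 with SPL replicate 1, and the 2 SPL replicates had 0.986.

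The markers of sorted cells were checked on each array. The 12 T cell markers had summed levels, in multiples of the array's 75th percentile, of 850 and 894 in IEL replicates 1 and 2 and of 922 and 910 in SPL replicates 1 and 2. Among them were *Cd8a* at 7.08, 6.77, 6.69 and 6.43 and *Cd8b1* at 7.40, 7.98, 8.04 and 8.11 in IEL replicates 1 and 2 and SPL replicates 1 and 2. In the same order of arrays, *Itgae*, which encodes the integrin chain CD103 of intraepithelial lymphocytes, stood at 6.87, 5.27, 4.16 and 3.16. The sums of 10 intraepithelial T cell markers were 965 and 349 in IELs against 173 and 69.3 in SPLs, and those of 10 recirculating T cell markers were 82.7 and 397 against 459 and 447. *Gzma* and *Gzmb* weighed most in the intraepithelial sums of IELs, at 8.46 and 8.56 in IEL replicate 1 and 6.99 and 6.79 in IEL replicate 2. Of these 10 markers, 9 were higher in both IEL libraries than in both SPL libraries (24.4% of all tested probes were), and *Cd69* overlapped. The library labelled IEL replicate 2 was thus near the spleen for recirculating markers. For intraepithelial ones other than *Cd69* it was between the other IEL library and the spleen. For the tested probes of the 9 genes, the difference is therefore also given for each slide and without this library.

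**Figure D1:**
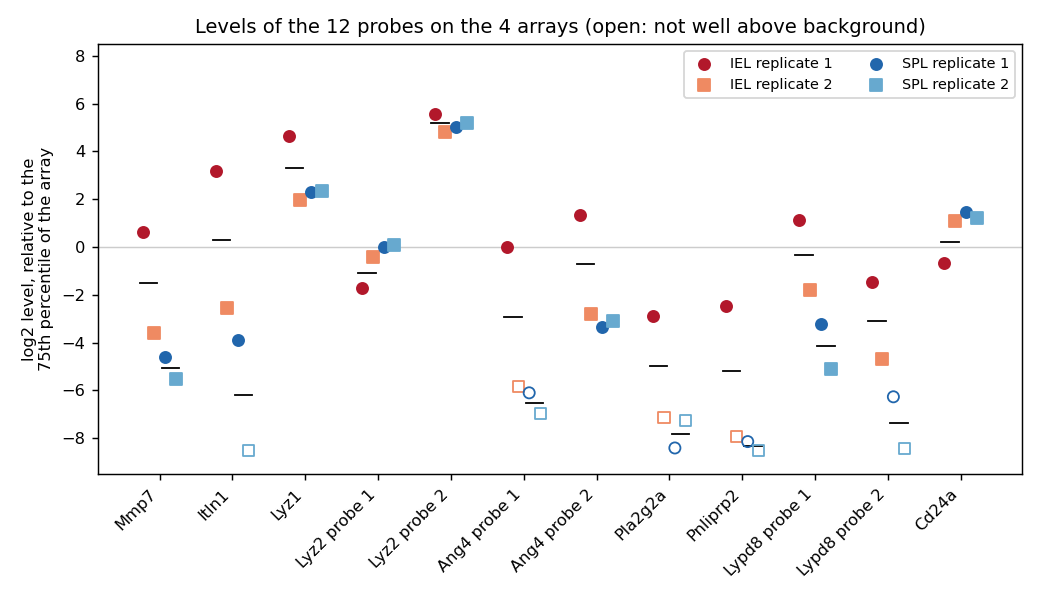
Level of each of the 12 probes on the 4 arrays, as log2 intensity relative to the 75th percentile of the array. Points are arrays, black lines are means of 2 arrays, and open symbols mark spots that were not well above background. IEL replicate 1 is the highest array for 10 probes and the lowest for *Lyz2* probe 1 and *Cd24a*.

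A probe was tested when the scanner software called it well above background on both arrays of at least 1 group. This held for 9 of the 12 probes, which cover 7 of the genes. Groups were compared by limma over all 27911 tested probes, with Benjamini-Hochberg adjustment and a threshold of 0.05. No probe on the array passed (0% of all tested probes in each direction), and the smallest adjusted p in limma was 0.634. Without adjustment, 2 of the 9 tested probes had a limma p under 0.05, both of *Lypd8* and both higher in CD8αβ+ IELs, against 4.63% of all tested probes that were higher and 1.1% that were lower. Of these, probe 2 was well above background in IELs only and entered the test through them, so its p rests on SPL signals at background. With the slide as a block limma called 0 probes as well, and 912 were higher and 296 lower at an unadjusted p under 0.05, none of them among the 9. With 2 arrays against 2, an exact permutation test of a single probe cannot give a two-sided p below 0.33. The differences below are therefore values with their spread, and no gene is called changed between the groups from all 4 arrays. In RNA from sorted cells, fewer cells of a type and less RNA per cell cannot be told apart.

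*Mmp7*, the α-defensin convertase, had intensities of 480 and 35.8 units in CD8αβ+ IELs and of 19.99 and 13.1 units in CD8αβ+ SPLs. The probe was well above background on all 4 arrays, and both IEL libraries were above both SPL libraries, but the first IEL library was 18.7-fold above the second. The mean level was -1.49 ± 2.99 (SD, n = 2) in IELs and -5.06 ± 0.666 (SD, n = 2) in SPLs. On the log2 scale IELs were higher by 3.57, or 11.8-fold, with a standard error of 1.48 and an adjusted limma p of 0.634. On slide 1 IELs were 71.0-fold higher, and on slide 2 they were 1.98-fold higher. With the normexp background correction in place of the scanner's, the log2 difference turned to -0.10, where the median of all tested probes was -0.38, and a normexp fit without spots far below their local background gave 1.95.

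*Itln1* encodes intelectin-1, a lectin that binds sugars of microbial surfaces and is made by Paneth and goblet cells. Its intensities were 2805 and 74.7 units in IELs and 32.0 and 1.65 units in SPLs, and SPL replicate 2 was not well above background. *Itln1* thus had the widest spread of the 9 tested probes within both groups. The IEL replicates were 52.3-fold apart, and the SPL replicates at least 5.10-fold. "At least" sets the brighter array against the lowest intensity that counted as well above background on the dimmer one, or against the dim spot's own intensity where that was higher. The fitted log2 difference was 6.53 (standard error 2.50, adjusted p 0.634 from limma), with mean levels of 0.31 ± 4.04 (SD, n = 2) in IELs and -6.21 ± 3.26 (SD, n = 2) in SPLs. It was 1.39 with the normexp correction and 3.62 in the second normexp fit. IELs were at least 687-fold higher than SPLs on slide 1, and 2.57-fold higher on slide 2.

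The fitted differences of the lysozyme probes differed in sign, and the signal of the *Lyz1* probe cannot be assigned to *Lyz1* or *Lyz2* alone. *Lyz1*, the lysozyme of Paneth cells, had intensities of 7864 and 1700 units in IELs and of 2362 and 3076 units in SPLs, so the groups overlapped. IEL replicate 1 was the highest array and IEL replicate 2 the lowest, 6.45-fold apart, while the SPL replicates were within 0.05 on the log2 scale. The log2 difference of *Lyz1* was 0.99 ± 0.938 (standard error), and limma's adjusted p was 0.691. It was 2.31 on slide 1 but -0.33 on slide 2. Without IEL replicate 1 the difference was -0.36.

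Probe 1 of *Lyz2*, the lysozyme gene of macrophages, starts at base 94 of its transcript and read 94.1 and 324 units in IELs and 479 and 650 units in SPLs. Both IEL libraries were below both SPL libraries, and IEL replicate 1 was the lowest. The log2 difference was -1.13 ± 0.497 (standard error), and limma's adjusted p was 0.634. Slide 1 gave -1.83 and slide 2 gave -0.42, and the normexp fits gave -0.56 and -0.85. Probe 2, which starts at base 1146 of another transcript, read 14756 and 12166 units in IELs and 15520 and 22360 units in SPLs. On this probe the groups overlapped, and the log2 difference was 0.07 (standard error 0.346, adjusted p 0.939 from limma). Slide 1 gave 0.36, slide 2 -0.21. The 2 probes differed most in IEL replicate 1, which was 1.31 below IEL replicate 2 on the log2 scale of probe 1 and 0.76 above it on that of probe 2.

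*Ang4*, the angiogenin of Paneth and goblet cells, was read by both probes chiefly in IEL replicate 1. Probe 2 gave 800 and 62.0 units in IELs and 47.4 and 71.5 units in SPLs, all well above background. By intensity IEL replicate 2 lay between the SPL libraries, but after scaling by each array's 75th percentile it was just above both, at -2.81 against -3.34 and -3.08. The log2 difference was 2.48 ± 1.43 (standard error), which is 5.60-fold, and limma's adjusted p was 0.634. The normexp correction gave 0.39 and the second normexp fit 1.98. IELs were 21.7-fold higher on slide 1 and 1.44-fold higher on slide 2.

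Probe 1 of *Ang4* gave 315 units in IEL replicate 1 and 7.59, 6.97 and 4.77 units in IEL replicate 2 and SPL replicates 1 and 2. It was well above background in IEL replicate 1 only, so it was not tested. IEL replicate 1 was 57.9-fold above the spot's own signal in IEL replicate 2, which was not well above background. It was at least 77.2-fold above SPL replicate 2 of the same slide. *Ang3*, whose probe carries the 18 shared bases, had levels of -0.16 and -5.46 in IELs and of -5.88 and -6.29 in SPLs, the last not well above background, so IEL replicate 1 was the highest array there too. How far the *Ang3* and *Ang4* probes read each other's transcripts was not tested.

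Transcripts named for lipid-cleaving enzymes were detected on a single array. *Pla2g2a* is named for the secreted phospholipase A2 of Paneth granules, but is listed as a transcribed pseudogene in this strain's reference genome. It read 42.6 units in IEL replicate 1 and 3.12, 1.41 and 3.95 units on the other arrays. *Pnliprp2*, which encodes a pancreatic lipase-related protein also known from cytotoxic T cell clones, read 56.3 units in IEL replicate 1 and 1.79, 1.69 and 1.66 units elsewhere. Both were well above background in IEL replicate 1 only and were not tested. IEL replicate 1 was at least 10.4-fold above SPL replicate 2 of the same slide for *Pla2g2a* and at least 13.8-fold for *Pnliprp2*, and at least 7.97-fold and 10.5-fold above IEL replicate 2. For comparison, the median of the 153 negative-control spots lay between 1.48 and 1.69 units on the 4 arrays.

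*Lypd8* encodes a glycosylphosphatidylinositol-anchored protein that enterocytes shed and that binds flagellated bacteria. Probe 1 gave 682 and 125 units in IELs and 52.0 and 17.4 units in SPLs, and probe 2 gave 112 and 16.8 units in IELs and 6.21 and 1.74 units in SPLs. On probe 1 the levels ran in the order IEL replicate 1, IEL replicate 2, SPL replicate 1 and SPL replicate 2. Probe 2 gave the same order in IELs but was not well above background in either SPL library. The log2 difference of probe 1 was 3.83 (standard error 1.21, 14.2-fold) with a limma p of 0.0300 that became 0.634 after adjustment. Probe 2 had an unadjusted limma p of 0.0292 and an adjusted p of 0.634, and IELs were at least 8.54-fold higher. With the normexp correction its log2 difference was -0.66, and 1.36 in the second normexp fit, while probe 1 gave 0.66 and 2.51. On slide 1 IELs were 75.9-fold higher on probe 1 and at least 27.4-fold higher on probe 2. On slide 2, where the other tested genes differed by at most 2.57-fold, IELs were 2.65-fold higher on probe 1 and at least 2.66-fold higher on probe 2.

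*Cd24a* encodes a small surface glycoprotein that marks Paneth cells and crypts and is also known on developing B cells and erythroid cells. Its intensities were 193 and 933 units in IELs and 1313 and 1421 units in SPLs. Both IEL libraries were below both SPL libraries, with IEL replicate 2 closer to the SPLs than to IEL replicate 1. The log2 difference was -1.14 ± 0.650 (standard error), and limma's adjusted p was 0.634. It was -1.92 on slide 1, against -0.35 on slide 2, and -0.52 and -1.05 in the normexp fits.

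Across the tested probes, 5 of 9 had both IEL libraries above both SPL libraries (24.4% of all tested probes did), 2 had both below (24.6% of all), and 2 overlapped. On slide 1, IELs were at least 2-fold higher for 6 of the 9 (11.8% of all) and at least 2-fold lower for 2 (13.7% of all). On slide 2 the counts were 3 (2.46% of all) and 0 (0.731% of all). The median log2 difference of the 9 probes was 4.44 on slide 1 and 0.53 on slide 2, against -0.01 and 0.00 over all tested probes. *Lyz1* and probe 2 of *Lyz2* had opposite signs on the slides, as did 28.3% of all tested probes. A probe enters these counts only if it passed the filter on dim spots, which a gene detected in IELs alone passes through its IEL values.

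**Figure D2:**
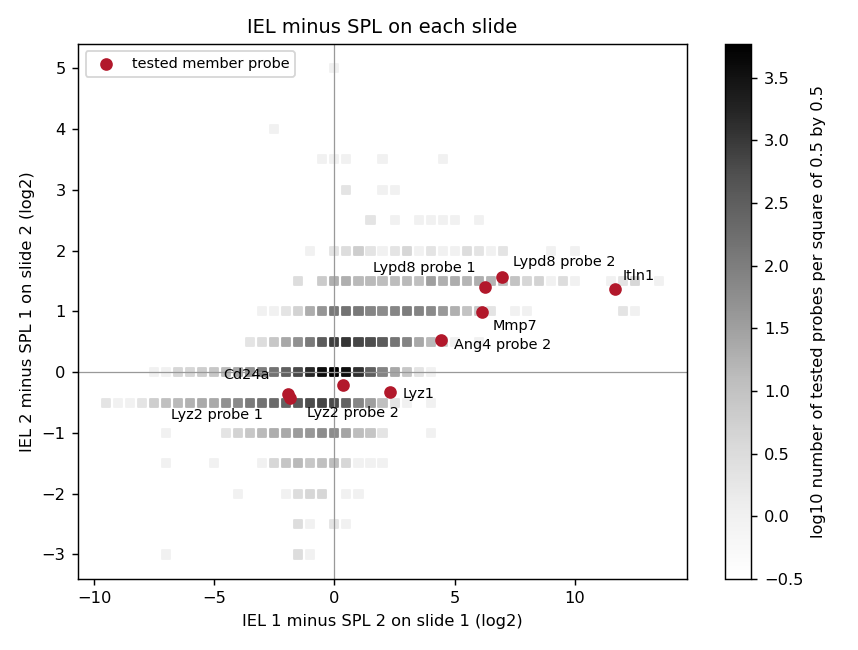
IEL minus SPL for each tested probe on slide 1 (x axis, IEL replicate 1 minus SPL replicate 2) and slide 2 (y axis, IEL replicate 2 minus SPL replicate 1), both in log2 units. Red points are the 9 tested probes of the genes described here, and gray squares hold all 27911 tested probes, darker where there are more. *Itln1* lies at 11.69 and 1.36, a slide 1 value for which SPL replicate 2 was not well above background, and *Cd24a* lies at -1.92 and -0.35.

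Set against each other by the difference between replicates, the genes of IELs formed an order that spanned both signs. IEL replicate 1 exceeded IEL replicate 2 by 5.71 for *Itln1*, 4.22 for *Mmp7*, 4.17 for *Ang4* probe 2, 3.22 and 2.93 for *Lypd8* probes 2 and 1, 2.69 for *Lyz1* and 0.76 for *Lyz2* probe 2, on the log2 scale. It was below IEL replicate 2 by 1.31 for *Lyz2* probe 1 and by 1.79 for *Cd24a*. IEL replicate 1 was at least 2-fold above IEL replicate 2 for 6 of the 9 probes (8.99% of all tested probes) and at least 2-fold below it for 2 (11.7% of all).

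SPL replicate 1 was at least 2-fold above SPL replicate 2 for 3 of the 9 probes (2.68% of all), which were *Itln1* and both probes of *Lypd8*, and at least 2-fold below it for 0 (1.25% of all). Probe 2 of *Lypd8* was at background in both SPL libraries and *Itln1* in SPL replicate 2. Only probe 1 of *Lypd8* thus had a measured difference there, and for *Itln1* it was at least 5.10-fold. *Mmp7* followed with 0.94. The other 5 probes differed by at most 0.26 in size between the SPL replicates. *Ang4*, *Lyz1* and *Cd24a* thus spread widely in IELs but not in SPLs, whereas *Itln1* and *Lypd8* spread in both groups. The levels of *Mmp7*, *Itln1* and *Lypd8* probe 1 ran in the order IEL replicate 1, IEL replicate 2, SPL replicate 1, SPL replicate 2, an order noted after the values were seen and shown by 13.8% of all tested probes.

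**Figure D3:**
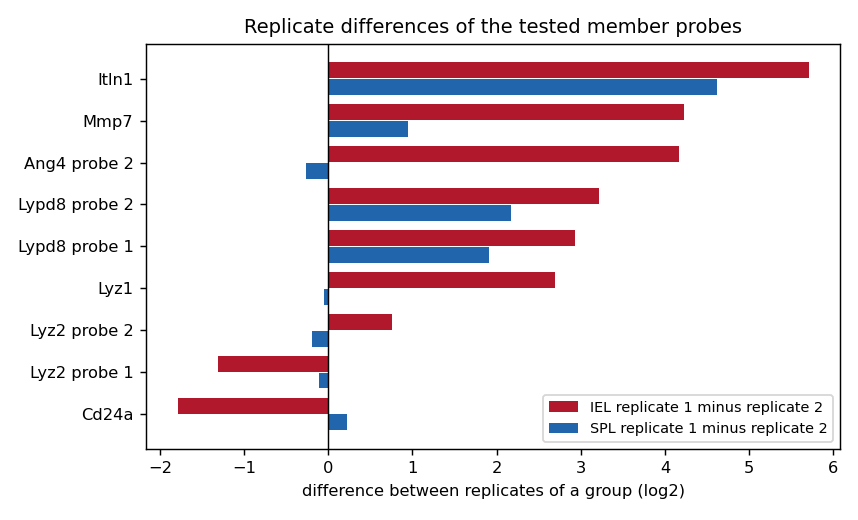
Difference between the 2 replicates of a group for each tested probe, in log2 units, for IELs (red bars) and SPLs (blue bars). The bars of *Itln1* are 5.71 and 4.61, whereas those of *Ang4* probe 2 are 4.17 and -0.26. In SPL replicate 2 *Itln1* and in both SPL replicates *Lypd8* probe 2 were not well above background, so these SPL bars are no measured differences.

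Without IEL replicate 2, the lone IEL library is assumed to vary like the SPLs. With all 4 arrays, the SD in IELs was larger than that in SPLs for each of the 9 probes. It was 2.99 against 0.666 for *Mmp7*, 2.95 against 0.183 for *Ang4* probe 2 and 1.90 against 0.0324 for *Lyz1*. IEL replicate 2 had also been singled out from marker levels on these same arrays. Only the sizes of the differences are therefore given here, and no probe is called from them. *Mmp7*, *Ang4* probe 2, *Lyz1* and *Lypd8* probe 1 were well above background on every array. Their log2 differences were 5.68, 4.57, 2.33 and 5.29. The fitted sizes of *Itln1* and *Lypd8* probe 2 rest in part on SPL signals at background, in 1 and 2 libraries. They are not given as measured, beyond the slide 1 bounds of at least 687-fold and 27.4-fold. The log2 difference was -1.78 for *Lyz2* probe 1, -2.03 for *Cd24a* and 0.45 for *Lyz2* probe 2. Under every other setting tried, limma's adjusted p of each of these probes was 0.205 or higher.

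Genes of other cell types were read on the same arrays, and none of the markers passed in limma. Of 16 epithelial markers, 15 were tested and all 15 were higher in both IEL libraries than in both SPL libraries, with a median log2 difference of 2.98 (24.4% of all tested probes were higher in this way). Without IEL replicate 1 the median was 1.90. Their summed level was 27.3 and 5.71 in IEL replicates 1 and 2 and 2.39 and 0.752 in SPL replicates 1 and 2. Goblet cell markers had 8 of 9 tested, 7 of them higher in both IEL libraries (24.4% of all), and summed levels of 36.9 and 12.5 in IELs and 10.4 and 9.80 in SPLs. *Galnt12*, the 1 that was lower in both, made up most of these sums outside IEL replicate 1. Its levels were 2.60 and 3.09 in IELs and 3.17 and 3.25 in SPLs. The median goblet difference was 6.39 on slide 1 and 1.46 on slide 2, and SPL replicate 1 exceeded SPL replicate 2 by a median of 1.75. The epithelial sum thus ran in the same order of arrays as *Itln1*, *Mmp7* and *Lypd8*, also between the SPL replicates. Of the 15 tested epithelial markers, 12 were higher in IEL replicate 1 than in IEL replicate 2, but *Apoa1*, *Apoa4* and *Alpi* were lower. *Apoa4* was also lower in SPL replicate 1 than in SPL replicate 2. The part of epithelial cells in these results was not tested. With the normexp correction the median difference of the epithelial list was -0.08, and 1.68 in the second fit.

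Paneth cell markers outside the 9 genes and the defensins had 9 of 12 tested, 7 of them higher in both IEL libraries (24.4% of all), and a median log2 difference of 0.85 (-0.24 with the normexp correction). It was 0.36 when IEL replicate 1 was left out and 1.53 when IEL replicate 2 was. Their summed level was 20.1 and 3.85 in IELs and 2.67 and 2.90 in SPLs, so it stood apart in IEL replicate 1. *Xbp1* made up the larger part of it on the other arrays, with levels of 1.14 in IEL replicate 2 and 0.74 and 1.14 in SPLs. The order of the epithelial sums was shown by *Spink4*, *Clps*, *Reg3g* and *Rnase1*, but not by *Nod2*, *Sox9*, *Ephb3*, *Fzd5* and *Xbp1*. *Spink4*, a peptide gene of Paneth and goblet cells, had 4.55 (7.79 on slide 1 and 1.31 on slide 2) and *Clps*, which encodes colipase, had 2.997 (5.13 and 0.86), whereas *Sox9*, a transcription factor of crypt cells, had -0.19 (0.05 and -0.44). Of 13 markers of pancreatic acinar cells, which make *Pnliprp2*, 7 were tested, with summed levels of 3.39 and 2.80 in IELs and 2.34 and 1.83 in SPLs. *Pnlip* and *Cpa1*, defining genes of that cell type, were not among the tested.

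The markers of blood cells ran the other way between the IEL libraries. Summed levels of 12 tested B cell markers were 6.96 and 91.2 in IEL replicates 1 and 2 and 114 and 100.4 in the SPL replicates. Those of 10 tested erythroid markers were 1.32 and 76.0 in IELs and 100.3 and 117 in SPLs. Both lists thus ordered the arrays by group as *Cd24a* did, with IEL replicate 1 far below the rest. Macrophage and monocyte markers, with 15 of 16 tested, summed to 1.52 and 15.7 in IELs and 19.3 and 9.35 in SPLs, and neutrophil markers, with 9 of 11 tested, to 0.253 and 36.6 in IELs and 45.4 and 51.2 in SPLs. IEL replicate 1 was the lowest array for both myeloid lists and for probe 1 of *Lyz2*, but not for probe 2 of *Lyz2* or for *Lyz1*. The part of these cell types in the results was not tested.

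**Figure D4:**
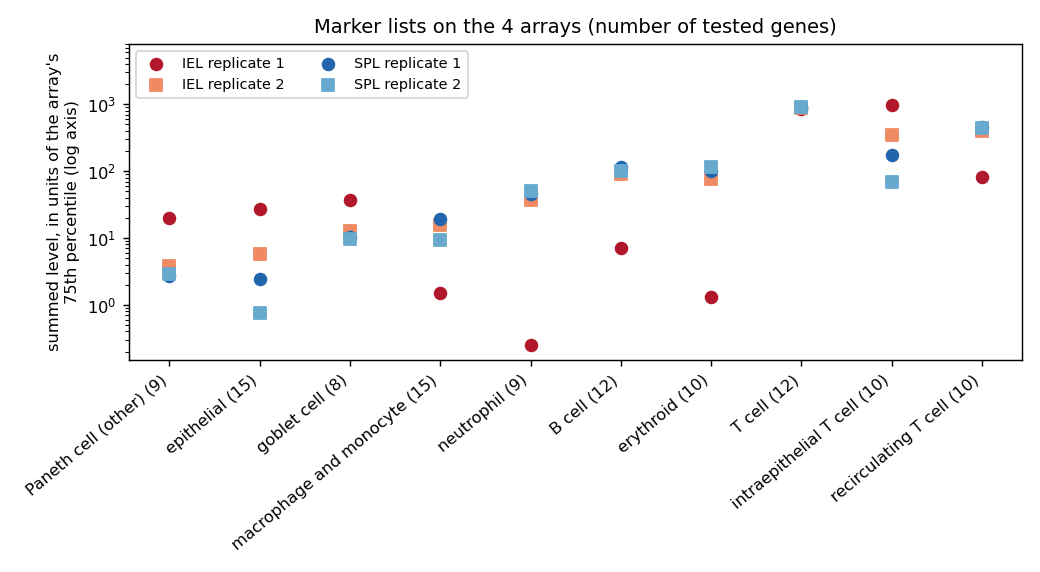
Summed level of the tested genes of 10 marker lists on each array, in multiples of the array's 75th percentile on a log axis, with the number of tested genes in parentheses. For B cell, neutrophil and erythroid markers, IEL replicate 2 (orange squares) lies near the SPL replicates and IEL replicate 1 (red circles) far below, at 6.96, 0.253 and 1.32.

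The same comparison was made for 24 other secreted antibacterial genes, of which 17 were tested and none passed in limma. Both IEL libraries were above both SPL libraries for 7 of the 17 (24.4% of all tested probes) and below for 5 (24.6% of all), and the median log2 difference was 0.35 (-0.69 with the normexp correction). *Zg16*, which encodes a lectin of goblet cells, had 3.97 (6.31 on slide 1 and 1.64 on slide 2), and *Reg3g*, which encodes a bactericidal lectin, had 3.84 (6.18 and 1.505). *Pigr*, which encodes the receptor that carries IgA across the epithelium, had a fitted 3.56 (5.79 and 1.33) and was not well above background in either SPL library. At the other end were *Ltf* with a fitted -3.86, *Camp* with -3.81 and *Slpi* with -3.46, which encode lactoferrin and cathelicidin of neutrophil granules and a secreted protease inhibitor. IEL replicate 1 carried these, since slide 1 gave -7.34, -6.79 and -6.65 and slide 2 gave -0.37, -0.82 and -0.26. *Ltf* and *Camp* were not well above background in IEL replicate 1, and the groups overlapped for *Slpi*. This group therefore had members on both sides of 0.

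Of 45 genes from the families of the 9 genes, 23 were tested and none passed in limma, with both IEL libraries above both SPL libraries for 11 of the 23 (24.4% of all) and below for 6 (24.6% of all) and a median log2 difference of 0.32 (-0.61 with the normexp correction). Leaving out IEL replicate 1 gave a median of 0.12, and leaving out IEL replicate 2 gave 0.56. The highest were *Ang3* with 3.28 (6.13 on slide 1 and 0.42 on slide 2), the ribonuclease gene *Rnase1* with 1.51 (2.83 and 0.18) and *Lypd3* with 1.48 (2.06 and 0.91). The lowest were the neutrophil collagenase gene *Mmp8* with a fitted -2.25 (-3.84 and -0.65), the phospholipase gene *Pla2g2d* with -1.84 (-3.17 and -0.51) and *Rnase6* with -1.502 (-2.76 and -0.25). *Mmp8* was not well above background in IEL replicate 1, and the groups overlapped for *Rnase6*. *Mmp7* was the highest of the tested matrix metalloproteinase genes, ahead of *Mmp11* with 1.30.

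For each gene with a tested probe, the genes with the most similar pattern were found by the Euclidean distance between mean-centered levels over the 4 arrays, among 18460 genes. *Mmp7* was nearest to *Pigr* (0.563), *Reg3g* (0.601) and *Asns* (0.642), and *Lypd8* to the mucin gene *Muc2* (0.215), *Clca3* (0.300) and *Ifi27l2b* (0.304). The probes of *Muc2* and *Clca3* were also counted among the goblet cell markers above, the latter under the name *Clca1*. *Itln1* was nearest to the α-defensin genes *Defa4* (0.221), *AY761184* (0.245) and *Defa23* (0.5002). *Ang4* had *Ins1* (0.433) and *Pkp1* (0.567) as nearest genes and *Lyz1* had *Serpinb6d* (0.257) and *Prss51* (0.264) beside an unnamed transcript. *Cd24a* had *Itgb1bp2* (0.0545) and *Lyz2*, on probe 2, had *Gm5662* (0.0347). The distances rest on 4 arrays and describe these libraries only. They include values at background, such as *Itln1* in SPL replicate 2 and *Pigr* in both SPL libraries.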

How the data were processed

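RNA was measured on 4 one-color Agilent arrays, 2 per group. The intensity values were deposited as scanner files, whose spots the authors' Agilent Feature Extraction software (10.7.3.1 per the file headers, 10.7.1.1 per the labels) corrected for background within each array, together with flags for outliers, saturation and signal well above background. The authors also deposited log2 values, equalized between arrays, which served as an alternative. The methods name PrimeView chips, and normalization is not given in the sources used here.

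Here, log2 intensities were scaled by each array's 75th percentile over 43379 non-control spots, without spots that carried an outlier mark, and the mean over a probe's spots gave 41174 probes. Probes well above background on both arrays of at least 1 group were tested (27911) with limma 3.58.1 (R 4.3.3, data.table, version 1.17.8), two-sided, without a block. A fold change is a fitted value unless given as "at least", which uses, per array, the higher of the dim probe's own signal and the lowest signal well above background. For arrays, the number of arrays limits the precision, and p-values measure only the spread between these samples. The script was tested on simulated data.

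All probes of the 9 genes are named. From the lists of other antibacterial genes and of the members' families, the 3 highest and 3 lowest genes are named, with 1 probe per gene (the tested probe with the highest mean level), and beside them markers of other cell types. *Mmp11* was named after its value was seen. For each gene the 3 nearest genes were sought, of which some are named. The members and lists were chosen with earlier results of these data known. Alternatives were other scalings, quantile normalization, normexp, the authors' values, other filters, a trend in the variances, the methods' t-test, blocks by slide or replicate number, and each sample left out. Same-numbered arrays did not deviate together (correlation across probes -0.025). With 2 arrays per group this correlation cannot tell whether the numbers pair the samples.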

Additional observations from a re-analysis of the deposited data

How the results depend on the processing

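No probe of the 9 genes and no probe on the array passed in limma under any of the alternatives except without IEL replicate 2. That fit has a lone IEL library, so its p-values rest on the spread of the SPLs. Its calls are not taken as differences between the groups. The number called over all tested probes ranged from 0 to 5452 when each sample was left out in turn, and that of the 9 tested probes from 0 to 8. Without IEL replicate 2, 2389 probes were higher and 3063 lower. The methods' t-test gave 470 higher and 349 lower probes at the methods' threshold, none of them of the 9 genes, and 0 after Benjamini-Hochberg adjustment. With the replicate number as a block, limma called 0 probes, and whether the numbers pair the samples is not known (correlation -0.025). At an unadjusted p under 0.05, the block gave 1488 higher and 643 lower probes, 4 of them among the 9, against 1293, 307 and 2 without it. 

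Of 151 values of the tested probes under 17 alternatives, 136 kept their direction and their side of the threshold and 8 passed it, all without IEL replicate 2. The 7 that reversed were *Lyz2* probe 2 with -0.0147 under quantile normalization, -0.0234 with the authors' values, -0.31 without IEL replicate 1 and -0.02 without SPL replicate 1 (-0.31 to 0.45 over the samples left out), *Lyz1* with -0.36 without IEL replicate 1 (-0.36 to 2.33), and, with the normexp correction, *Mmp7* with -0.10 and *Lypd8* probe 2 with -0.66. That correction moved the median of all probes to -0.38. It also turned the medians of the other antibacterial genes (-0.69), the families (-0.61) and the Paneth cell (-0.24), epithelial (-0.0778) and pancreatic acinar markers (-0.30), whereas the macrophage median ranged from -3.71 to 0.19 over the samples left out, with 0.19 where IEL replicate 1 was. The cause was not tested. Without IEL replicate 1 the differences were 3.67 for *Itln1*, 1.45 for *Mmp7*, 2.36 for *Lypd8* probe 1, 0.40 for *Ang4* probe 2, -0.47 for *Lyz2* probe 1 and -0.24 for *Cd24a*. The median of the other antibacterial genes was 0.21 without SPL replicate 2. 

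Signal over background limits *Pla2g2a*, *Pnliprp2* and *Ang4* probe 1, which were read on 1 array only, *Lypd8* probe 2 in SPLs, and *Itln1* in SPL replicate 2.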
